A study of Mus musculus with 15 samples.

Results

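Cells of the mouse heart region at E7.75 (stages are in days of embryonic development) were compared between 2 lineage reporter lines, Isl1Cre and Nkx2-5Cre. All cells with 1000 or more genes above 0 in the 4 libraries of that stage were taken, which gave 362 cells of the 1339 cells kept over 15 libraries and 4 stages, or 376 of 1400 before that filter. The Nkx2-5Cre group held 186 cells in 2 libraries and the Isl1Cre group 176 cells in 2 libraries. In both groups the Cre allele was combined with Rosa26tdTomato, a reporter that Cre recombination switches on for good in a cell and its descendants, so a label records past as well as present activity of the driver gene. Cells were either sorted by fluorescence or picked after trypsin digestion alone, per the labels, and the sources used here do not say which of the 2 was used for each library. The sample titles give 1 embryo number to both libraries of a line at a stage. The p-values rest on how far libraries of the same line and stage differ from each other, pooled over all 15 libraries, and that spread may be technical.

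At this stage the heart is a crescent of mesoderm beneath the head folds. Nkx2-5 and Isl1 encode a homeodomain and a LIM-homeodomain transcription factor of heart progenitors; the first heart field differentiates early and forms much of the left ventricle, whereas the second heart field, for which Isl1 is the classical marker, stays undifferentiated for longer and adds the right ventricle, outflow tract and parts of the atria. Differentiation is seen as the onset of contractile genes, whose proteins build the thick (myosin) and thin (actin) filaments and the Z-discs that anchor them.

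The libraries differed in depth and in sex as well as in Cre line. The median cell held 360929 and 203311 counts in the Nkx2-5Cre libraries and 105119 and 127704 in the Isl1Cre libraries. A Y-linked gene was detected in 87 of 91 and 83 of 95 Nkx2-5Cre cells but in 1 of 91 and 0 of 85 Isl1Cre cells, and Xist, the RNA that silences an X chromosome in female cells, in 8 and 6 against 63 and 77 cells, so line and sex cannot be told apart. All 12 markers of cardiac crescent mesoderm were above 5 CPM (counts of a gene scaled to a fixed cell total, averaged over cells) in each of the 4 libraries, with a summed mean of 1599 and 1259.8 CPM in Nkx2-5Cre and 1114 and 1308 CPM in Isl1Cre, and 6 or 7 of 7 blood markers were at 0. Endothelial markers summed to 264 and 528 CPM against 842 and 406 CPM, and endoderm markers to 1224 and 383 CPM against 814 and 476 CPM. No cell name and no cell profile was shared between the libraries.

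Heart muscle RNA was lower in Isl1Cre across the contractile apparatus, and the genes that were higher included some of early developmental timing and of G2 and mitosis. Of 10670 genes tested, 756 were called at an adjusted p under 0.05 (7.09%), of which 356 were higher in Isl1Cre (3.34%) and 400 lower (3.75%). The shares of 3.34% and 3.75% are the background for each count of list members below, unless another is given. The test was limma on log2(mean CPM + 1), where the mean is taken over the cells of a library, and each log2 change below is Isl1Cre minus Nkx2-5Cre on that scale with its standard error. The median log2 change of all genes tested was -0.05. Leaving out 1 library gave 367 and 490 calls without the first and the second Nkx2-5Cre library, and 318 and 370 without the first and the second Isl1Cre library. In all 4 of those fits, 192 of the 756 genes were called in the same direction. Averaging log2(CPM + 1) over cells in place of CPM moved the median of all genes to -0.64 and turned the split into 164 higher and 3952 lower, and fitting the 4 libraries alone gave 294 higher and 157 lower.

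Neither of the 2 driver genes passed the test between the lines. Nkx2-5 was measured at 260.2 and 230.1 CPM in the Nkx2-5Cre libraries and 174 and 218 CPM in the Isl1Cre libraries (log2 change -0.28 ± 0.16 (SE), adjusted p = 0.335). Isl1 was measured at 50.9 and 54.1 CPM in Nkx2-5Cre and 27.8 and 41.3 CPM in Isl1Cre (log2 change -0.57 ± 0.40 (SE), adjusted p = 0.468). Both Isl1Cre libraries lay below both Nkx2-5Cre libraries for each gene, as they did for 30.9% of all genes tested, and neither difference passed the test.

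Among 26 early cardiac regulators, mostly transcription factors and cofactors and with them the transmembrane Wnt inhibitor Tmem88, 5 (Tmem88, Hand1, Smyd1, Hey2 and Irx4) were lower in Isl1Cre and 0 higher, with a median log2 change of -0.34. Hand1, a basic helix-loop-helix factor of the left ventricle and of extraembryonic mesoderm, stood at 54.8 and 63.9 CPM against 13.4 and 14.5 CPM (log2 change -1.97 ± 0.36 (SE), adjusted p = 0.00203). Lbh, a transcriptional cofactor of the early heart and limb bud that is not on that list, stood at 80.3 and 59.2 CPM against 11.2 and 17.0 CPM (log2 change -2.19 ± 0.22 (SE), adjusted p = 4.08e-06). For both genes the 2 lines were apart by more than 2-fold, with no overlap. The core factors did not pass: the log2 change was -0.39 for Gata4 (adjusted p = 0.412), -0.61 for Hand2 (adjusted p = 0.172), 0.60 for Tbx5 (adjusted p = 0.179) and 0.53 for Mef2c (adjusted p = 0.105). Tbx5, a T-box factor of the first heart field, was measured at 23.5 and 21.7 CPM in Nkx2-5Cre and 32.8 and 34.8 CPM in Isl1Cre, and Mef2c, a MADS-box factor of both fields, at 221 and 211 and 279 and 327 CPM.

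**Figure D1:**
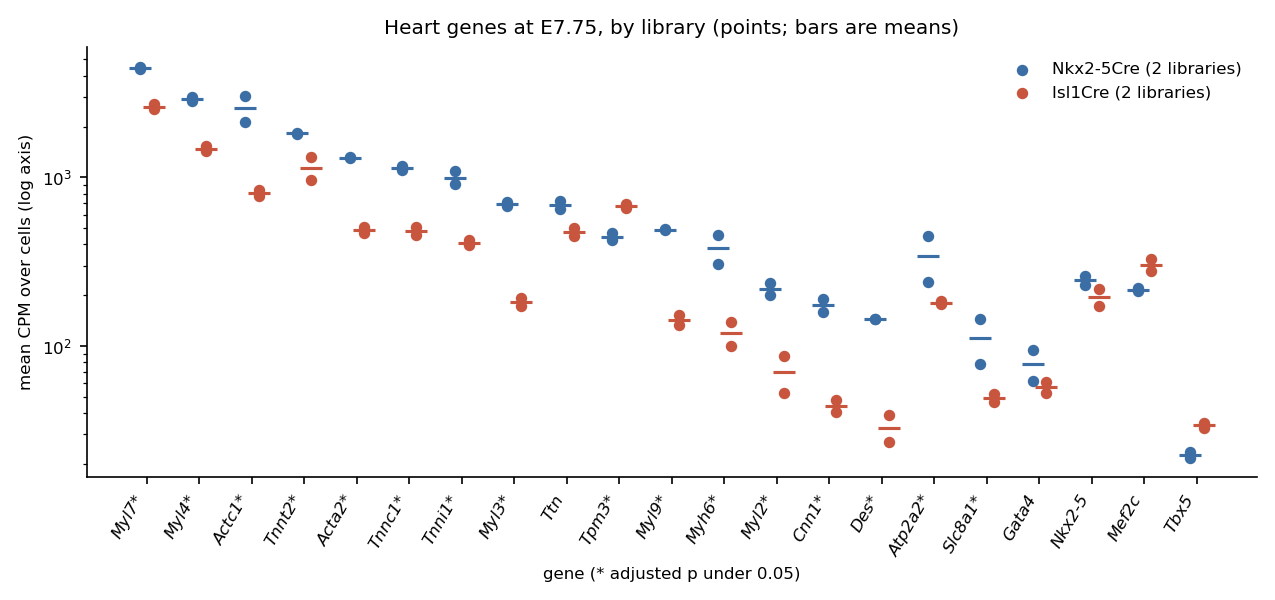
Mean CPM (log axis) of 21 heart genes in each of the 4 E7.75 libraries, 1 point per library, coloured by Cre line, with a bar at each mean of 2 libraries and an asterisk where the difference passed the test at an adjusted p under 0.05. Contractile genes such as Myl3, Cnn1 and Des lie far apart between the lines, and Nkx2-5, Gata4 and Ttn lie close together.

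Of 12 thick filament genes tested, 9 were lower in Isl1Cre and none higher, with a median log2 change of -1.28. Myl7, the atrial regulatory light chain and the one with the highest CPM among them, stood at 4536 and 4385 CPM in Nkx2-5Cre and 2528 and 2712 CPM in Isl1Cre (log2 change -0.72 ± 0.10 (SE), adjusted p = 1.08e-04). Myl4, the atrial essential light chain, gave 2848 and 2992 against 1429.7 and 1531 CPM (log2 change -0.93 ± 0.12 (SE), adjusted p = 1.04e-04). Both light chains were thus abundant in all 4 libraries, at a lower level in each Isl1Cre library. The ventricular isoforms and the heavy chains had larger log2 changes, although the difference between genes was not tested. Myl3, the ventricular essential light chain, gave 715 and 676 against 173 and 192 CPM (log2 change -1.88 ± 0.11 (SE), adjusted p = 6.58e-09). Myh6, the alpha heavy chain, gave 456 and 305 against 99.4 and 138 CPM, a log2 change of -1.62 ± 0.17, and Myl2, the ventricular regulatory light chain, gave 202 and 236 against 53.0 and 86.8 CPM, a log2 change of -1.62 ± 0.18 (adjusted p = 6.02e-06 and 1.25e-05). In every one of these genes both Isl1Cre libraries were below both Nkx2-5Cre libraries. That order held for 10 of the 12 listed genes and for 30.9% of all genes tested. Myh7, the beta heavy chain, had a log2 change of -1.92 ± 0.16; its locus also carries the antisense transcript Mhrt, and the sources used here do not say whether reads were counted by strand.

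Of 16 thin filament genes, 8 were lower and 1 higher, with a median of -0.89; leaving out each library in turn gave between 6 and 8 lower and none higher. Actc1, cardiac alpha-actin, was measured at 3045 and 2132 CPM in Nkx2-5Cre and 776 and 836 CPM in Isl1Cre (log2 change -1.61 ± 0.16 (SE), adjusted p = 3.18e-06). The troponin genes Tnni1, the slow inhibitory subunit, and Tnnc1, the calcium-binding subunit, had log2 changes of -1.23 and -1.18 (adjusted p = 5.58e-06 and 5.03e-06). Tnnt2, the tropomyosin-binding subunit and a standard cardiomyocyte marker, had one of the smaller changes of the called genes, from 1818 and 1826 CPM to 967 and 1313 CPM (log2 change -0.65 ± 0.12 (SE), adjusted p = 0.00221). That call was lost without the first Isl1Cre library (adjusted p = 0.0711). The member that went the other way was Tpm3, a tropomyosin of many cell types, at 465 and 426 against 699 and 654 CPM (log2 change 0.65 ± 0.16 (SE), adjusted p = 0.0149), and its call was lost without any 1 of the 4 libraries (adjusted p 0.0618 to 0.129). Acta1, skeletal alpha-actin, had the largest fall on the list, with a log2 change of -2.36; actin isoforms share coding sequence, and the sources used here do not say how reads shared between them were counted.

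Of 23 Z-disc and sarcomere assembly genes, 16 were lower and none higher, with a median of -1.22 and 15 to 17 lower when each library was left out. Actn2, the alpha-actinin that crosslinks thin filaments, was measured at 66.9 and 45.9 CPM against 8.07 and 7.73 CPM (log2 change -2.62 ± 0.21 (SE), adjusted p = 2.60e-07). Des, which encodes the intermediate filament desmin, was measured at 145 and 145 CPM against 26.9 and 38.8 CPM (log2 change -2.09 ± 0.20 (SE), adjusted p = 2.78e-06). Ttn, the giant spring protein that spans the sarcomere from Z-disc to M-band, showed values of 726 and 652 and 450.4 and 498 CPM that did not pass the test (log2 change -0.49 ± 0.21 (SE), adjusted p = 0.175). For all 3 genes both Isl1Cre libraries lay below both Nkx2-5Cre libraries, as for 19 of the 23 listed genes and 30.9% of all genes tested.

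**Figure D2:**
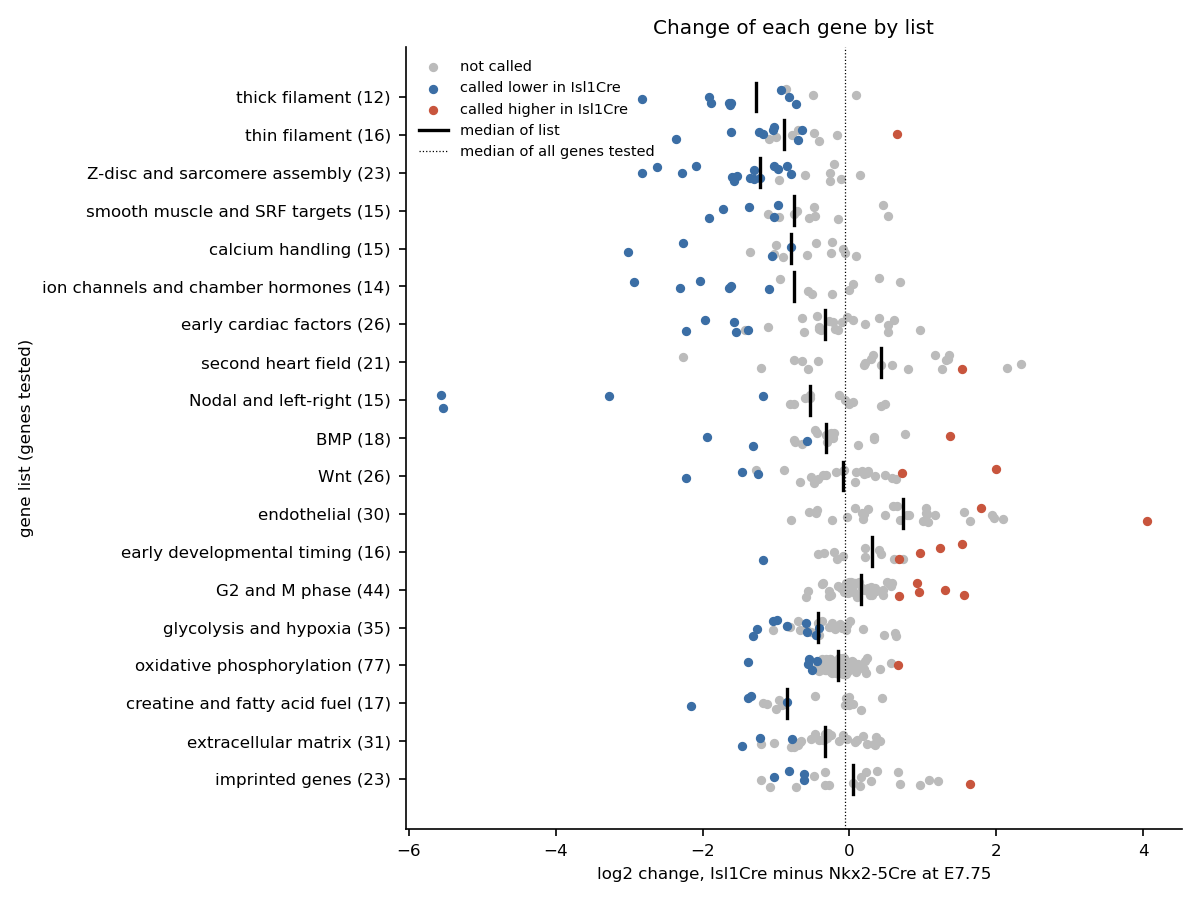
Log2 change at E7.75 (Isl1Cre minus Nkx2-5Cre, library means) of every tested gene of 19 gene lists, 1 point per gene, with the list's median as a bar. The thick filament, thin filament and Z-disc lists lie mostly below 0, with medians of -1.28, -0.89 and -1.22, while the endothelial list lies mostly above 0.

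The promoters of contractile genes are a known target of serum response factor, which binds the CArG box. The 5 promoters printed here belong to genes that fell in Isl1Cre and that span the actin, myosin and Z-disc groups. All but that of Actn2 hold a CArG box. Among all contractile genes called lower it was found in 9 of 42 windows, so the 5 do not show how common it is. Each is the 200 bases before the gene start in RefSeq on GRCm38.p6 (mm10), read 5′ to 3′ on the gene's strand, with the CArG box in capitals. They lie at chr8:123894776-123894975, minus strand (Acta1), chr2:114052876-114053075, minus strand (Actc1), chr9:110763478-110763677, plus strand (Myl3), chr11:5898783-5898982, minus strand (Myl7) and chr13:12340733-12340932, minus strand (Actn2).
Acta1: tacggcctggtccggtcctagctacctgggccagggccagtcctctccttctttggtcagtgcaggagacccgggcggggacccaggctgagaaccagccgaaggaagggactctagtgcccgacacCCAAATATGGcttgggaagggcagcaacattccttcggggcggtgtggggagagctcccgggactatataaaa
Actc1: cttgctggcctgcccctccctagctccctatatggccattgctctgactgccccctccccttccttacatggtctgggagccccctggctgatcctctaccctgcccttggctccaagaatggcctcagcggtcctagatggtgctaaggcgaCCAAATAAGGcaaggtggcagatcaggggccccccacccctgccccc
Myl3: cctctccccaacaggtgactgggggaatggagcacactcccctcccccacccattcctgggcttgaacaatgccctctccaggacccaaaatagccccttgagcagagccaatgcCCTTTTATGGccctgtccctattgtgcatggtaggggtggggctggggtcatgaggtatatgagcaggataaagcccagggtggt
Myl7: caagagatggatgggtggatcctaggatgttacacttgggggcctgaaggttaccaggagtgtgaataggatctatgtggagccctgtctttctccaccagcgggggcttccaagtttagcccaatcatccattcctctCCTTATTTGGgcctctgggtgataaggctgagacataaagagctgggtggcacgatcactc
Actn2: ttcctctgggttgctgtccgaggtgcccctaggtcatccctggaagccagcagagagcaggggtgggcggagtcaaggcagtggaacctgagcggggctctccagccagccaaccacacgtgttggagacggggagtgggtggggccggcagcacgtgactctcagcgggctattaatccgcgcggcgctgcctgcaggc
The CArG box began 73 bases before the gene start in Acta1, 47 in Actc1, 85 in Myl3 and 61 in Myl7, and the Actn2 stretch held no exact match. Windows of 300 bases, 250 before to 50 after each start, were searched on both strands for the CArG box, the GATA motif AGATAA, the NKX2-5 motif CACTTAA and TGTGNATT, the motif of the Nodal-dependent factor FOXH1. Contractile genes here are those of the thick filament, thin filament, Z-disc, and smooth muscle and serum response factor target lists. The last list holds known targets of the factor that binds the CArG box, so an excess of that box over all windows is partly built in. Of 37 contractile genes called lower, 34 had a window in the RefSeq table, and the CArG box was found in 9 of their 42 windows (21.4%). It was found in 7 of the 25 windows of contractile genes tested and not called (28%) and in 1.63% of all 32851 windows, or 1.45% of the 10519 windows of genes tested. AGATAA was in 4 of the 42 windows (9.52%), in 5 of the 25 of contractile genes not called (20%), in 11.2% of all windows and in 6.32% of those of genes tested, so the share of the 42 lay below one background and above the other. CACTTAA was in 1 of the 42 (2.38%) and none of the 25, against 2.41% of all windows and 1.91% of those of genes tested. TGTGNATT was in none of the 42 and 2 of the 25 (8%), against 3.60% and 2.13%. These matches describe letters in the windows, and binding was not measured.

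The difference in contractile RNA was spread over the whole range of cells. The summed CPM of 56 sarcomere genes had a median per cell of 18349.7 and 17591 in the Nkx2-5Cre libraries and 5714 and 6984 in the Isl1Cre libraries. The 10th percentile of cells was 7974 and 7505 CPM against 2650.4 and 2386 CPM, and the 90th percentile was 52897 and 45930 CPM against 31669 and 35067 CPM. Both Isl1Cre libraries thus lay below both Nkx2-5Cre libraries at the low end, the middle and the high end. After each cell was thinned to 20000 counts, the median cell held a count for 31 and 28.5 of the 56 genes against 17.5 and 19; 5 and 11 Nkx2-5Cre cells and 7 and 3 Isl1Cre cells were too shallow for this.

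**Figure D3:**
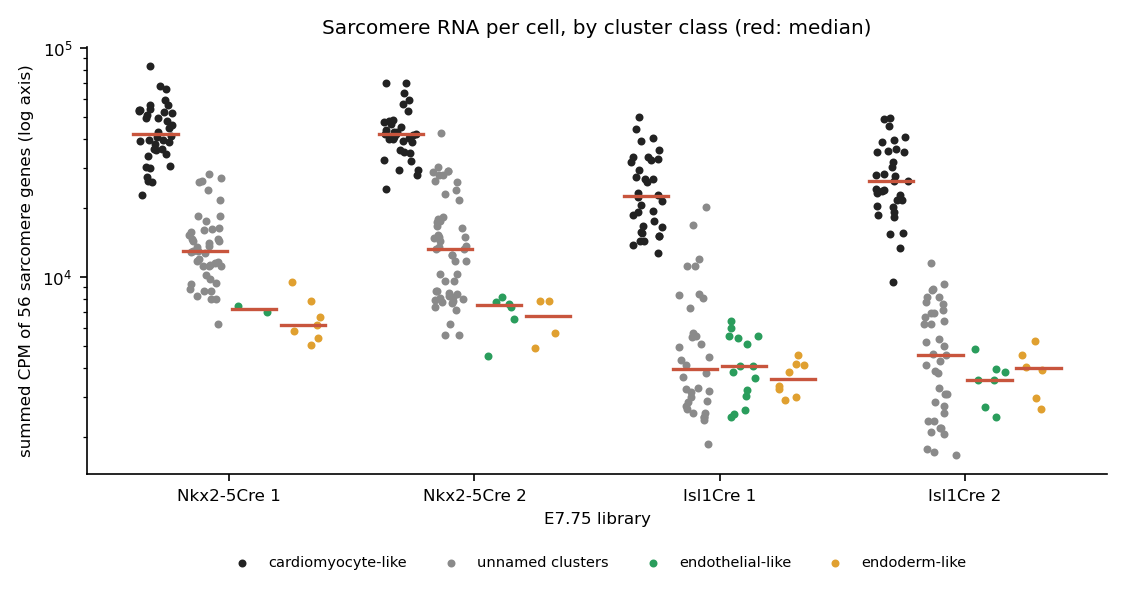
Summed CPM of 56 sarcomere genes per cell (log axis) by cell class and library, 1 point per cell, with a red bar at each median. Cardiomyocyte-like cells are highest in all 4 libraries, and in each class both Isl1Cre medians lie below both Nkx2-5Cre medians; only 2 cells of the first Nkx2-5Cre library were endothelial-like.

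The lower end of that range held cells of other types. Endoderm-like cells, named from markers such as Epcam and Cldn6, had a median of 6138 and 6751 CPM of sarcomere RNA in Nkx2-5Cre and 3598 and 3994 CPM in Isl1Cre. Tnnt2 averaged 376 CPM in the 11 Nkx2-5Cre endoderm-like cells that reached 20000 counts, against 1912 CPM in the 159 other cells, and 89.6 against 1210.2 CPM in Isl1Cre. Heart RNA was thus present in cells that should lack it, at a higher level in Nkx2-5Cre, and the part of such RNA in the other differences was not tested.

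The share of cells with a count for a heart gene was therefore set beside the share in endoderm-like cells. In cells thinned to 20000 counts, Actn2 was detected in 50% and 36.9% of Nkx2-5Cre cells and in 11.9% and 9.76% of Isl1Cre cells. The endoderm-like share was 45.5% (5 of 11 cells, median depth 486783 counts) in Nkx2-5Cre against 43.4% of the other cells (median depth 281749), and 7.14% against 11.2% in Isl1Cre (median depths 112233 and 120335). The Actn2 shares were at or near background in both lines and are not read as expression. Myh6 was detected in 95.3% and 85.7% against 41.7% and 41.5% of cells, with endoderm-like shares of 72.7% and 7.14%. Tnnt2 was found in nearly all cells at this depth, endoderm-like cells included (100% in Nkx2-5Cre and 78.6% in Isl1Cre), so its share is not read as expression either. Over all counts of a cell, Actn2 was found in 11 of 11 Nkx2-5Cre endoderm-like cells and 90.6% of the others. In Isl1Cre it was found in 3 of 14 endoderm-like cells (21.4%) and 38.8% of the others.

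Clustering of the 362 cells alone gave 7 clusters, of which 4 could be named from fixed markers. Cluster 1 (71 cells, all Nkx2-5Cre) and cluster 3 (67 cells, all Isl1Cre) were cardiomyocyte-like, cluster 6 (30 cells) endothelial-like and cluster 7 (25 cells) endoderm-like. Clusters 2, 4 and 5 (69, 56 and 44 cells) passed no naming rule; cluster 2 was all Isl1Cre, 55 of the 56 cells of cluster 4 and 41 of the 44 cells of cluster 5 were Nkx2-5Cre. The best marker match of cluster 5 was endoderm, with 5 of 15 markers 2-fold higher, and Ttr, Rbp4, Apom and Apoa1, genes of visceral endoderm, stood beside Hand1 among its 10 leading genes. Such RNA was not confined to cluster 5. Ttr averaged 221 CPM there, 60.7 and 33.6 CPM in clusters 1 and 4, and 1.36 and 4.35 CPM in clusters 3 and 2. At 20000 counts, Apoa1 was found in 75 of 159 Nkx2-5Cre cells outside the endoderm-like class and in 0 of 152 in Isl1Cre. Cardiomyocyte-like cells and the cells of the unnamed clusters thus split by line, and the endothelial-like and endoderm-like clusters held cells of all 4 libraries. Xist was among the 10 leading genes of cluster 3.

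Cardiomyocyte-like cells made up 41.8% (95% interval 31.5 to 52.6) and 34.7% (95% interval 25.3 to 45.2) of Nkx2-5Cre cells and 37.4% (95% interval 27.4 to 48.1) and 38.8% (95% interval 28.4 to 50.01) of Isl1Cre cells. Endothelial-like cells made up 2.20% (95% interval 0.267 to 7.71) and 6.32% (95% interval 2.35 to 13.2) of Nkx2-5Cre cells against 16.5% (95% interval 9.53 to 25.7) and 8.24% (95% interval 3.38 to 16.2) of Isl1Cre cells. Endoderm-like cells made up 7.69% (95% interval 3.15 to 15.2) and 4.21% (95% interval 1.16 to 10.4) against 8.79% (95% interval 3.87 to 16.6) and 7.06% (95% interval 2.63 to 14.7). The intervals are exact binomial and cover counting error only, and sorting or picking could set these shares. With 2 libraries against 2, the smallest two-sided p of an exact permutation test is 0.333, so no share could pass.

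**Figure D4:**
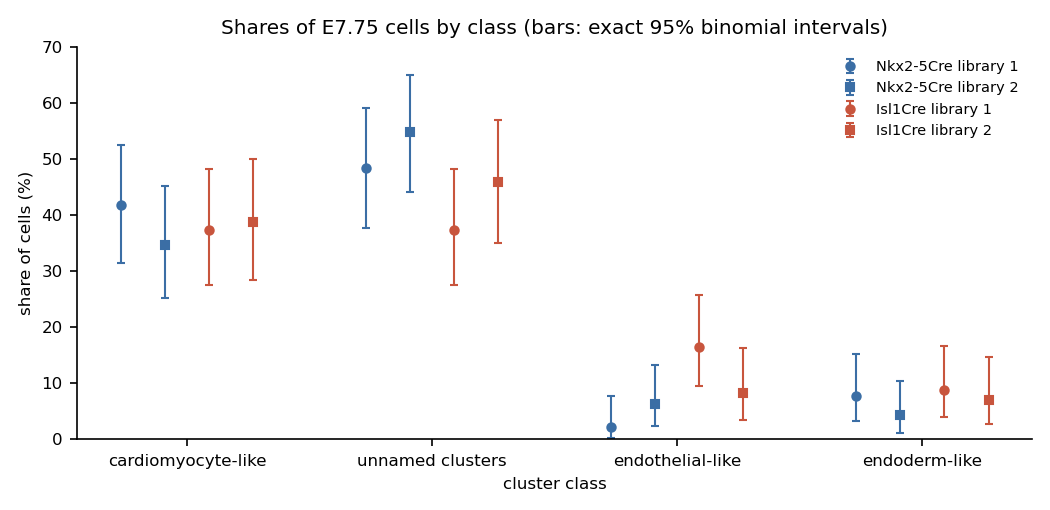
Share of cells (percent) in each class per E7.75 library, 1 point per library with its exact 95% binomial interval. Cardiomyocyte-like shares overlap between the lines (34.7% to 41.8%), and endothelial-like shares run from 2.20% in an Nkx2-5Cre library to 16.5% in an Isl1Cre library.

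Within cardiomyocyte-like cells many contractile genes were still lower in Isl1Cre, whereas Tnnt2 and Ttn did not pass the test. Refitting with only those cells at E7.75 (clusters 1 and 3, a restriction chosen after seeing the data) gave 503 genes higher in Isl1Cre (4.71%) and 545 lower (5.11%). The median sarcomere sum per cell was 41972 and 41926 CPM in Nkx2-5Cre and 22531 and 26174 CPM in Isl1Cre. Tnnt2 gave a log2 change of -0.29 (adjusted p = 0.141) and Ttn of -0.32 (adjusted p = 0.35). Actn2 was lower by a log2 change of -3.02 (adjusted p = 4.97e-08), from 129.8 and 113 CPM to 11.7 and 14.6 CPM. Myl3 (-1.60, adjusted p = 1.29e-07) and Actc1 (-1.26, adjusted p = 6.08e-05) were lower too. Of the thick filament list 8 of 12 members, of the thin filament list 6 of 16 and of the Z-disc list 16 of 23 were lower. The classes were built from the same cells and genes, so the markers' own levels within a class depend partly on how it was drawn.

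Heart factors in the same cells moved in both directions, with Mef2c and Tbx5 higher and Hand1 lower in Isl1Cre. Nkx2-5 in cardiomyocyte-like cells averaged 367 and 334 CPM in Nkx2-5Cre and 317 and 386 CPM in Isl1Cre (log2 change 0.10, adjusted p = 0.75). Mef2c averaged 329 and 332 against 561 and 612 CPM and was higher in Isl1Cre (0.93, adjusted p = 0.00419). Tbx5 averaged 35.2 and 35.7 against 77.9 and 68.0 CPM and was higher as well (1.12, adjusted p = 0.0125). Hand1 was lower (-2.64, adjusted p = 5.68e-04). Across all cells neither Mef2c nor Tbx5 had passed.

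In the cells of the unnamed clusters (cluster 2 for Isl1Cre, almost wholly 4 and 5 for Nkx2-5Cre) Tnnt2, Myl7, Actc1 and Nkx2-5 were all lower in Isl1Cre. Because the lines fall in different clusters, this comparison sets cells with unlike markers side by side. Of 12 cardiomyocyte markers, 5 were 2-fold higher in cluster 4 and 0 in cluster 2, whose leading genes included Osr1, Aldh1a2 and Nr2f2. The parts of line and of cell type in the differences below cannot be told apart. Refitted alone, these cells gave 450 genes higher (4.22%) and 647 lower (6.06%). The median sarcomere sum was 13975 and 14821 CPM in cluster 4 and 12932 and 10302 CPM in cluster 5 of the Nkx2-5Cre libraries, against 3662 and 4467 CPM in cluster 2 of the Isl1Cre libraries. Tnnt2 was lower by a log2 change of -1.31 (adjusted p = 1.04e-06), Myl7 by -1.55 (adjusted p = 7.33e-08) and Actc1 by -3.01 (adjusted p = 2.85e-08), and Nkx2-5 was lower too (-0.83, adjusted p = 0.00356). Without cluster 5, the 4 genes were still lower (log2 changes -1.67, -1.90, -3.37 and -1.03, adjusted p up to 9.26e-04), with 478 genes higher (4.48%) and 660 lower (6.19%). Actn2 and Hand1 were lower with cluster 5 (-1.30 and -1.40, adjusted p = 0.0128 and 0.0198) and did not pass without it (-0.70 and -0.94, adjusted p = 0.172 and 0.226). The endoderm-like medians given above differed in the same direction, at 6138 and 6751 against 3598 and 3994 CPM.

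Of 15 smooth muscle and serum response factor target genes, 5 (Cnn1, Myl9, Acta2, Tpm1 and Cnn2) were lower and none higher, with a median of -0.76, and the count was 5 whichever library was left out. Acta2, smooth muscle alpha-actin, which the first cardiomyocytes also express, was measured at 1321 and 1296 CPM against 468 and 511 CPM (log2 change -1.37 ± 0.12 (SE), adjusted p = 4.43e-07). Myl9, the smooth muscle regulatory light chain, was measured at 485 and 491 against 154 and 133 CPM and Cnn1, the actin-binding calponin, at 190.5 and 160.1 against 48.0 and 40.5 CPM, with log2 changes of -1.72 and -1.92. Tagln, another actin-binding protein gene, did not pass (196 and 172 against 97.7 and 149 CPM, log2 change -0.56, adjusted p = 0.127), with the second Isl1Cre library close to the second Nkx2-5Cre library.

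Calcium handling genes were lower in 4 of 15 cases (Tmem38a, Casq1, Slc8a1 and Atp2a2), beside 3.75% of all genes tested, with a median of -0.80. Tmem38a, a cation channel of the sarcoplasmic reticulum, was measured at 10.6 and 11.4 CPM in Nkx2-5Cre and at under 1 CPM in both Isl1Cre libraries (0.781 and 0.216 CPM, 12 and 3 counts; adjusted p = 1.09e-05). Slc8a1, the sodium-calcium exchanger, was measured at 145 and 77.9 against 46.3 and 51.7 CPM (log2 change -1.06 ± 0.20 (SE), adjusted p = 0.00282), and its call was lost without the first Nkx2-5Cre library (adjusted p = 0.0743). Atp2a2, the reticulum calcium pump, had a log2 change of -0.80 (adjusted p = 0.0182) that passed in only 1 of 4 fits with a library left out (adjusted p 9.49e-04 to 0.317, lost without the first Nkx2-5Cre and without either Isl1Cre library). The first Nkx2-5Cre library was well above the second for Slc8a1 and Atp2a2 and not for Tmem38a.

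Ion channel and peptide hormone genes were lower in 6 of 14 cases, beside 3.75% of all genes tested. Pyy, a gut peptide hormone gene also found in early heart cells, was measured at 128 and 120.2 CPM against 54.5 and 27.3 CPM (-1.61 (adjusted p = 0.0121) on the log2 scale), and Kcnh2, a potassium channel of repolarisation, at 45.8 and 31.6 against 18.98 and 14.8 CPM (-1.09 (adjusted p = 0.027)). Each of the 2 calls passed in only 1 of 4 fits with a library left out, with adjusted p from 0.0115 to 0.192 for Pyy, which passed without the first Isl1Cre library, and from 0.0438 to 0.218 for Kcnh2, which passed without the second Nkx2-5Cre library.

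Energy metabolism genes were lower in part, to be read beside the 3.75% lower among all genes tested. Of 35 glycolysis and hypoxia genes, 9 were lower and none higher (median -0.43); the number lower was 8 and 5 without the first and the second Nkx2-5Cre library, and 5 and 6 without the first and the second Isl1Cre library. Eno3, the muscle enolase, was measured at 209 and 194 against 78.0 and 83.5 CPM (log2 change -1.26 ± 0.13 (SE), adjusted p = 4.27e-06), and Bnip3, a hypoxia-induced mitophagy gene, at 207 and 193 against 77.8 and 112 CPM (log2 change -1.05 ± 0.15 (SE), adjusted p = 2.05e-04). Of 77 oxidative phosphorylation genes, 5 were lower and 1 higher, together near the share called among all genes, with a median of -0.15; 2 were lower whichever library was left out. Among them Cox7a1, the muscle isoform of a cytochrome oxidase subunit, was measured at 99.7 and 86.8 against 33.5 and 34.5 CPM (log2 change -1.38 ± 0.20 (SE), adjusted p = 1.95e-04).

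Of 17 creatine and fatty acid fuel genes, 4 (Ckb, Ppargc1a, Fabp3 and Gamt) were lower, and 2 were lower whichever library was left out. Ckb, the brain-type creatine kinase that buffers ATP, was measured at 314 and 383 CPM in Nkx2-5Cre and 63.9 and 87.2 CPM in Isl1Cre (log2 change -2.15 ± 0.17 (SE), adjusted p = 2.25e-07). Fabp3, the heart fatty acid binding protein, was measured at 56.3 and 58.4 against 16.7 and 27.5 CPM (log2 change -1.34 ± 0.19 (SE), adjusted p = 2.00e-04). In cardiomyocyte-like cells alone the log2 changes were -2.01 for Ckb and -1.40 for Fabp3 (adjusted p = 4.31e-06 and 0.00383).

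Genes of the Nodal and left-right pathway were lower in 4 of 15 cases and higher in none, with a median of -0.54 and 3 or 4 lower when each library was left out. Nodal encodes the ligand that sets the left side of the lateral plate, Lefty2 its secreted inhibitor, and Tdgf1 and Cfc1 its co-receptors. Nodal was measured at 40.0 and 51.1 CPM in Nkx2-5Cre (1294 and 1117 counts) and at 0 counts in both Isl1Cre libraries, which makes it at least 359-fold lower against a floor of 3 counts over the group (adjusted p = 3.18e-06). Lefty2 was measured at 69.0 and 53.0 CPM against 0 and 6 counts. Both genes were high in both Nkx2-5Cre libraries and low or at 0 in both Isl1Cre libraries.

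Of the Nodal co-receptors, Tdgf1 was measured at 208 and 231 against 80.1 and 108 CPM (log2 change -1.18 ± 0.29 (SE), adjusted p = 0.0163), but it passed in 1 of 4 fits with a library left out, that without the second Isl1Cre library (adjusted p 0.0412 to 0.163), and Cfc1 did not pass (log2 change -0.54, adjusted p = 0.369). Nodal RNA was also counted in Nkx2-5Cre endoderm-like cells, in 27.3% of them at 20000 counts against 40.9% of the other cells (3 of 11 and 65 of 159), and in no Isl1Cre cell of either kind. Over all counts of a cell it was found in 11 of 11 endoderm-like and 92.5% of the other Nkx2-5Cre cells, with mean levels of 10.1 and 46.0 CPM, so that share does not separate the 2 kinds of cell and is not read as expression. Thinned to 20000 counts, the share of Nkx2-5Cre cells with Nodal was 37.2% and 42.9% in the first and second library. By level, Lefty2 and Nodal headed the 10 leading genes of cluster 4 (56 cells, 1 of them Isl1Cre). The clusters were drawn from the same cells and genes.

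Signalling genes of the other pathways changed singly. Of 26 Wnt genes, 3 (Tmem88, Wnt5a and Wnt2) were lower and 2 (Wnt4 and Tcf7l2) higher (median -0.08), and of 18 BMP genes 3 (Acvr1, Msx2 and Id2) were lower and 1 (Bmp2) higher (median -0.32). Among all genes tested 3.75% were lower and 3.34% higher. In clusters 2 and 4 alone Msx2 gave a log2 change of 0.98 (adjusted p = 0.126), against -1.31 in all cells. Wnt5a, a noncanonical ligand of second heart field morphogenesis, was measured at 64.3 and 65.4 CPM in Nkx2-5Cre and 23.4 and 21.0 CPM in Isl1Cre (log2 change -1.46 ± 0.27 (SE), adjusted p = 0.00188). Wnt2, a ligand of the inflow region and allantois, was measured at 203 and 134 against 62.2 and 71.3 CPM (log2 change -1.25 ± 0.25 (SE), adjusted p = 0.00349), and that call was lost without the first Nkx2-5Cre and without the first Isl1Cre library (adjusted p up to 0.0763). Bmp2, a ligand of heart induction, was higher, at 18.9 and 23.0 against 57.8 and 49.8 CPM (log2 change 1.37 ± 0.29 (SE), adjusted p = 0.0064), and was lost without the same libraries (adjusted p up to 0.0826). The number of BMP genes lower was 0 and 1 without the first and the second Nkx2-5Cre library, and 0 and 1 without the first and the second Isl1Cre library, and the number of Wnt genes higher was 1 and 0 without the first and the second Nkx2-5Cre library, and 0 and 1 without the first and the second Isl1Cre library.

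Vangl2, a core gene of planar cell polarity that orients cells through noncanonical Wnt signalling, had one of the largest increases. It was measured at 7.42 and 6.06 CPM in Nkx2-5Cre and 51.5 and 52.5 CPM in Isl1Cre (log2 change 2.83 ± 0.35 (SE), adjusted p = 4.75e-05). Both Isl1Cre libraries were close to each other and far above both Nkx2-5Cre libraries. The increase held in cardiomyocyte-like cells (3.06, adjusted p = 1.26e-04) and in the unnamed clusters (2.64, adjusted p = 1.82e-04). Wnt5a, a ligand that acts upstream of it, went the other way in both (-1.40 and -1.72, adjusted p = 0.0102 and 0.00356). Ptch1, the hedgehog receptor and a target of hedgehog signalling, was measured at 7.41 and 13.2 against 27.6 and 54.1 CPM (log2 change 1.90 ± 0.53 (SE), adjusted p = 0.0336), and its call passed only without the second Nkx2-5Cre library when libraries were left out (adjusted p 0.0472 to 0.279).

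Of 21 second heart field genes, 1 passed as higher and none as lower, while the median of 0.43 was above that of all genes (-0.05). Without the first Isl1Cre library 2 were higher and 1 lower. The called member was Sall4, a zinc finger factor of progenitors and pluripotent cells, at 120.1 and 146 CPM in Nkx2-5Cre and 357 and 388 CPM in Isl1Cre (log2 change 1.53 ± 0.21 (SE), adjusted p = 1.39e-04). Osr1, a zinc finger factor of the posterior second heart field, was measured at 3.83 and 4.27 against 21.2 and 26.4 CPM and did not pass (log2 change 2.33 ± 0.77 (SE), adjusted p = 0.0779). The 2 lines did not overlap for either gene, as for 9 of the 21 members above and 6 below, beside 20.2% and 30.9% of all genes tested.

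Of 16 genes of early developmental timing, 4 (Sall4, Trim71, Lin28a and Igf2bp1) were higher and 1 (Tdgf1) lower (median 0.31). The shares over all genes tested were 3.34% higher and 3.75% lower. Lin28a, an RNA-binding protein that blocks let-7 maturation, was measured at 229 and 203 against 400.4 and 415 CPM (log2 change 0.96 ± 0.25 (SE), adjusted p = 0.0238), and Trim71, a let-7 target and mRNA repressor, at 50.8 and 38.4 against 104 and 100.2 CPM (log2 change 1.23 ± 0.28 (SE), adjusted p = 0.0103). The Lin28a call was lost without any 1 of the 4 libraries (adjusted p 0.104 to 0.13), and the Trim71 call in 3 of those 4 fits (up to 0.0923), all but that without the first Nkx2-5Cre library. The number of list members higher was 2 and 1 without the first and the second Nkx2-5Cre library, and 1 and 1 without the first and the second Isl1Cre library.

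Of 44 genes of G2 and mitosis, 5 (Kif20b, Smc2, Smc4, Mki67 and Top2a) were higher and none lower, and of 40 S phase genes 1 (Pola1) was higher, a smaller share than among all genes tested (3.34%), and none whichever library was left out. The medians were 0.16 and 0.23. Kif20b, a mitotic kinesin, was measured at 39.1 and 30.03 CPM against 101 and 99.1 CPM (log2 change 1.57 ± 0.22 (SE), adjusted p = 1.60e-04), and Smc2, a condensin subunit, at 269.8 and 246 against 652 and 589 CPM (log2 change 1.31 ± 0.23 (SE), adjusted p = 0.00153). The number of G2 and mitosis genes higher was 4 and 4 without the first and the second Nkx2-5Cre library, and 3 and 3 without the first and the second Isl1Cre library. In cardiomyocyte-like cells alone 11 of the 44 were higher, beside 4.71% of all genes tested there. Their median was 0.47, and the log2 change of Kif20b was 2.21 (adjusted p = 3.32e-05).

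Endothelial genes had a raised median (0.74) and 2 of 30 members called (Etv2 and Npr3), both higher, beside 3.34% higher among all genes tested. Etv2, the ETS factor that starts the endothelial and blood programme, was measured at 2.82 and 9.58 CPM in Nkx2-5Cre and 135 and 76.1 CPM in Isl1Cre (log2 change 4.05 ± 0.45 (SE), adjusted p = 1.18e-05). Kdr, the VEGF receptor that Etv2 induces, did not pass (3.53 and 12.5 against 24.4 and 18.9 CPM, log2 change 1.57, adjusted p = 0.0686). The number of members higher was 1 and 4 without the first and the second Nkx2-5Cre library, and 1 and 2 without the first and the second Isl1Cre library. The first Isl1Cre library was highest both in the summed endothelial markers and in the endothelial-like share. The marker sums overlapped between the lines, at 264 and 528 CPM in Nkx2-5Cre and 842 and 406 CPM in Isl1Cre, and did not follow Etv2, which did not overlap. Without endothelial-like and endoderm-like cells the list's median was -0.26 and the Etv2 call was lost. In cardiomyocyte-like cells alone Etv2 passed as higher in Isl1Cre (log2 change 2.65, adjusted p = 0.0113). It averaged 0.641 and 2.55 CPM against 32.4 and 5.00 CPM there, with the first Isl1Cre library well above the second. In the unnamed clusters it did not pass (1.15, adjusted p = 0.131).

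Genes of other germ layers and regions were raised singly. Hesx1, a homeobox gene of the anterior ectoderm, anterior endoderm and prechordal region, had no count in either Nkx2-5Cre library and 97 and 277 counts in the Isl1Cre libraries (13.9 and 10.2 CPM), at least 279-fold higher against a floor of 3 counts over the group (adjusted p = 3.79e-04). The difference passed in the unnamed clusters (4.48, adjusted p = 6.92e-05) and did not pass in cardiomyocyte-like cells (0.36, adjusted p = 0.756), although the 2 were not tested against each other. Gata3, a zinc finger factor of surface ectoderm and extraembryonic tissue, was measured at 23.5 and 15.1 against 89.96 and 84.7 CPM (log2 change 2.20 ± 0.43 (SE), adjusted p = 0.00348). It was also among the 10 leading genes of the endoderm-like cluster. Its difference passed in the unnamed clusters (2.95, adjusted p = 4.74e-04) and did not pass in cardiomyocyte-like cells (1.47, adjusted p = 0.0608). Of 20 extraembryonic and lateral mesoderm genes, 5 were lower and 1 higher (median -0.50), and the number lower was 1 and 4 without the first and the second Nkx2-5Cre library, and 2 and 2 without the first and the second Isl1Cre library.

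Among 23 imprinted genes, 4 (H19, Igf2r, Igf2 and Cdkn1c) were lower and 1 (Peg3) higher, and the number lower was 1 and 3 without the first and the second Nkx2-5Cre library, and 1 and 3 without the first and the second Isl1Cre library. H19, a maternally expressed noncoding RNA, was measured at 1062 and 973 CPM against 499 and 469 CPM (log2 change -1.02 ± 0.13 (SE), adjusted p = 5.38e-05). Peg3, a paternally expressed zinc finger gene, went the other way, at 28.9 and 22.2 against 81.6 and 75.1 CPM (log2 change 1.64 ± 0.29 (SE), adjusted p = 0.00159); edgeR and DESeq2 on summed counts did not call it. Of 31 extracellular matrix genes, 3 (Col5a1, Mfap2 and Col18a1) were lower, with Col5a1, a fibrillar collagen chain, at 60.6 and 50.8 against 18.8 and 19.1 CPM (log2 change -1.46 ± 0.22 (SE), adjusted p = 2.76e-04), and the number lower was 2 and 1 without the first and the second Nkx2-5Cre library, and 2 and 2 without the first and the second Isl1Cre library. Also lower were 2 genes tied to cell guidance: Efna1, an ephrin ligand (-1.89 (adjusted p = 0.0023) on the log2 scale), and Dpysl3, a cytoskeletal mediator of semaphorin signalling (-1.96 (adjusted p = 2.09e-05)). Beside the imprinted and matrix counts, 3.75% of all genes tested were lower and 3.34% higher.

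Some of the largest increases were outside the heart lists. Gas5, a snoRNA host gene, was measured at 61.1 and 74.7 CPM against 377 and 384 CPM (log2 change 2.52 ± 0.14 (SE), adjusted p = 4.43e-09), and it was the only one of 18 snoRNA host genes called. The predicted gene Gm1821 was measured at 305 and 404 against 1819.9 and 1822 CPM (log2 change 2.42 ± 0.15 (SE), adjusted p = 9.25e-09); whether its reads are shared with another locus was not tested. For both genes the lowest Isl1Cre library was more than 2-fold above the highest Nkx2-5Cre library.

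To see which differences were larger at E7.75 than later, the difference at this stage was set against the mean of the same difference at the 3 later stages in the same limma fit. This contrast called 324 genes (3.04%), of which 109 were higher (1.02%) and 215 lower (2.01%); 170 and 223 were called without the first and the second Nkx2-5Cre library and 139 and 169 without the first and the second Isl1Cre library. Many contractile genes stood lower in Isl1Cre against Nkx2-5Cre at E7.75 than in the mean of the later stages. Called lower were 8 of 12 thick filament, 6 of 16 thin filament and 11 of 23 Z-disc genes, and 1, Tpm3, was higher. At E8.25 Isl1Cre was still below Nkx2-5Cre for Myl4 (4195 ± 146 against 7988 ± 136 CPM, SD, n = 2) and Myl3 (1270 ± 156 against 2777 ± 191 CPM). At E9.25 the single Isl1Cre library was above the Nkx2-5Cre mean for both (9361 against 7012 CPM and 3778 against 3084 CPM). Actn2 differed from the later stages by -2.32 on the log2 scale (adjusted p = 1.37e-05), Ckb by -2.03 (adjusted p = 4.36e-06) and H19 by -1.29 (adjusted p = 5.63e-05). Isl1Cre has 1 library at E9.25, and the sex of the cells also varied over the later libraries, so the part of sex in this contrast was not tested. At E8.25 Xist averaged 52.3 ± 26.0 CPM (SD, n = 2) in Nkx2-5Cre and 72.9 ± 33.4 CPM in Isl1Cre, and at E8.75 it was near 0 in both (1.00 ± 0.333 and 0.200 ± 0.0314 CPM). At E9.25 the lines were the reverse of E7.75, with Xist at 117 ± 77.1 CPM in Nkx2-5Cre and 0.0832 CPM in Isl1Cre and the Y-linked Eif2s3y at 0 and 54.0 CPM.

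**Figure D5:**
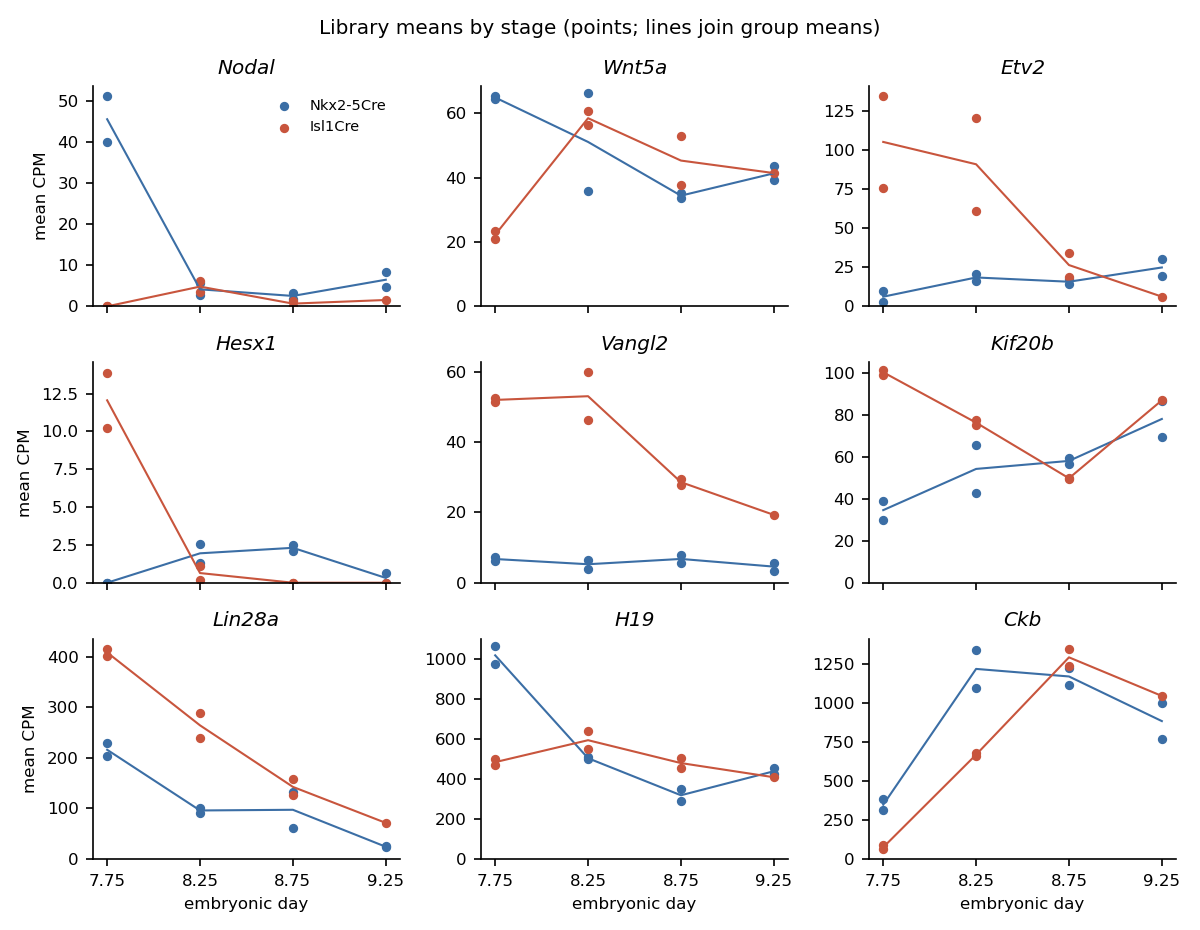
Library mean CPM of 9 genes at each of the 4 stages (E7.75 to E9.25) by Cre line, 1 point per library and a line through the group means. Nodal is highest in Nkx2-5Cre at E7.75, Hesx1 and Etv2 in Isl1Cre at E7.75, and the group means of Vangl2 and Lin28a lie higher in Isl1Cre at every stage.

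Some of the differences at E7.75, such as that of Vangl2, had a counterpart in the later means. Not passing against the later stages does not by itself show this. For Vangl2 the difference at E7.75 did not pass against that of the later stages (0.48, adjusted p = 0.604), with means of 5.26 ± 1.73 CPM in Nkx2-5Cre and 53.1 ± 9.63 CPM in Isl1Cre at E8.25 (SD, n = 2). Sall4 (0.66, adjusted p = 0.17), Lin28a (-0.26, adjusted p = 0.714) and Gata3 (1.34, adjusted p = 0.17) did not pass either. Means of Sall4 and Lin28a were higher in Isl1Cre at each later stage. Gata3 was lower at E9.25, at 11.8 CPM in the single Isl1Cre library against a mean of 17.0 CPM in Nkx2-5Cre. Nodal did pass against the later stages (adjusted p = 3.28e-04), with a Nkx2-5Cre mean of 4.14 ± 2.08 CPM at E8.25. Wnt5a differed from the later stages as well (-1.69, adjusted p = 0.00481), at 51.0 ± 21.4 CPM in Nkx2-5Cre against 58.4 ± 3.09 CPM in Isl1Cre at E8.25. Hesx1 also differed from the later stages (adjusted p = 4.68e-04), and Kif20b did (1.39, adjusted p = 0.00481). Nkx2-5 itself, which did not pass at E7.75, differed from the later stages by -0.77 (adjusted p = 0.0304), with means of 265 ± 14.7 CPM in Nkx2-5Cre and 285 ± 12.1 CPM in Isl1Cre at E8.25.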

How the data were processed

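Single cells were profiled with a modified Smart-seq2 protocol that adds an 8-nt cell barcode and a molecular identifier and captures transcript 3′ ends, per the labels' protocols. CASAVA 1.8, TopHat2 2.0.12, HTSeq and the build mm10 are named in the submitters' processing notes. The authors deposited CPM values per cell for 23154 genes; the sources used here do not say whether these rest on reads or on unique molecules. All low values were whole multiples of 1 count within 0.1 of a step (100%), so counts were recovered for edgeR 4.0.16, DESeq2 1.42.0 and thinning.

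Cells with 1000 or more genes above 0 were averaged per library. Genes at 5 CPM or more in at least 2 of 15 libraries were tested with limma 3.58.1 (R 4.3.3, trended) on log2(mean CPM + 1) after TMM scaling, with 8 group means, 7 residual degrees of freedom and Benjamini-Hochberg adjustment over all 10670 genes. Cells of E7.75 were clustered with leidenalg 0.10.2 (10000-count scaling, 2000 variable genes, 30 components, 15 neighbours, resolution 1); a cluster was named where at least 0.5 of a type's markers were 2-fold higher, a share set after seeing the data. No doublet caller was run. The text names genes by a rule: the 15 largest changes each way at 20 CPM or more, genes at 1 CPM or less in 1 line and 10 or more in the other, a fixed panel, and 2 genes each way per gene list. Of the 121 such genes tested, values are given for 77, chosen with the values known, 2 are not reported here, and other called list members are named without values where a list has 5 or fewer. The members, panel and 37 lists were chosen with earlier results of these data known. Totals per E7.75 library were 12820393 to 38321215 counts; the correlation of replicate libraries across genes was 0.98 in both lines. Shared replicate numbers did not pair the libraries. The alternatives included other tools, filters, cell sets and each library left out; the fits restricted to a cell class were added after seeing the data. Scripts were tested on simulated data.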

Additional observations from a re-analysis of the deposited data

Results flagged for a closer look

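The text gives values, here or in another section, for 77 genes. Many of them were named for their difference at E7.75, which is 1 term of the contrast used here, so a high count is built in. For 50 of the 77, the difference between the lines at E7.75 differed from the mean of the same difference at the 3 later stages (limma, adjusted p under 0.05 over all genes tested). Over all genes tested it did for 324 (3.04%). The values here are that difference of differences on the log2 scale. A negative value means that Isl1Cre stood lower against Nkx2-5Cre at E7.75 than in the mean of the later stages. It does not say that the difference was absent at each later stage. The 2 comparisons have no libraries in common, but Isl1Cre has 1 library at E9.25, and sex, depth and cell makeup vary among the libraries; their part was not tested.

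Of the contractile genes, values in the thick filament were -1.99 for Myh7, -1.54 for Myl3, -1.50 for Myh6, -1.46 for Myl2, -0.73 for Myl4 and -0.60 for Myl7. In the thin filament they were -2.29 for Acta1, -1.41 for Actc1, -1.22 for Tnni1, -1.17 for Tnnc1, -0.54 for Tnnt2 (adjusted p = 0.0439) and 0.71 for Tpm3. Actn2 stood at -2.32 and Des at -1.98. Among smooth muscle genes Cnn1 gave -1.62, Myl9 -1.44 and Acta2 -1.18. Tmem38a gave -2.43 and Kcnh2 -1.35.

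Of the regulators, Nkx2-5 gave -0.77, Hand1 -2.11 and Lbh -1.82. Nodal gave -4.71 and Lefty2 -5.30; the size of such values for genes at or near 0 depends on the pseudocount. Wnt5a gave -1.69, Wnt2 -1.28 and Bmp2 1.37. The endothelial genes Etv2 and Kdr gave 3.69 and 2.34, Hesx1 gave 4.71 and Trh, a hormone gene of the endoderm list, 2.46 (adjusted p = 0.0463). Etv2 was still higher in Isl1Cre at E8.25 (91.1 ± 42.1 CPM against 18.5 ± 3.36 CPM in Nkx2-5Cre, SD, n = 2). At E9.25 it was lower in the single Isl1Cre library (6.23 CPM against a mean of 24.9 CPM).

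Of the cell cycle genes, Kif20b gave 1.39, Smc2 1.17 and Pola1, a DNA polymerase subunit, 1.32 (adjusted p = 0.0444). Of the metabolic genes, Ckb gave -2.03, Cox7a1 -1.12 and Eno3 -0.78. The imprinted genes H19, Igf2r and Peg3 gave -1.29, -0.82 and 1.46. Col5a1 gave -1.55, Mfap2, a microfibril protein gene, -1.65, Dpysl3 -1.46 and Hspa5, the endoplasmic reticulum chaperone, 0.59. Gas5 gave 2.13 and Gm1821 1.81. The sex-linked genes Xist, Eif2s3y, Uty and Ddx3y gave 8.30, -6.53, -6.14 and -4.89.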

How the results depend on the processing

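Of the 84 called genes that the naming rule picks, 1, Msx2, changed sign under an alternative (0.98 in clusters 2 and 4 alone), and 52 kept the call whichever of the 4 E7.75 libraries was left out. 57 of the 84 kept it with cells thinned to 5000 counts, 58 with no filter on low values, 70 with edgeR and 73 with DESeq2. Among the 37 genes named and not called, 26 changed sign under at least 1 alternative; of those with values above, these were Nkx2-5 (0.10) and Isl1 (0.24) in cardiomyocyte-like cells, Tbx5 with log values averaged (-0.68), thinned cells (-0.0349) and the unnamed clusters (-0.41), Mef2c with log values averaged (-0.58) and in clusters 2 and 4 (-0.38), Hand2 in clusters 2 and 4 (0.10) and Kdr in the unnamed clusters (-0.40) and in clusters 2 and 4 (-0.54). The count of 756 calls became 464 with no filter, 451 with the 4 libraries alone, 4116 with log values averaged over cells, 306 with thinned cells, 1138 with clusters 2 and 4 alone and 318 to 490 with a library left out. The 356 higher became 192, 294, 164, 111, 478 and 117 to 221 in that order, and the 400 lower became 272, 157, 3952, 195, 660 and 201 to 269, or 647 in all unnamed clusters alone. Log averaging moved the median of all genes from -0.05 to -0.64. The 324 genes differing from later stages became 184 with no filter, 203 with edgeR, 495 in the unnamed clusters, 499 in clusters 2 and 4 and 139 to 223 with a library left out. Other settings kept these counts within 1.5 times, and shares of cells by class kept within their spread at resolutions 0.6 and 1.5. Differences in the share of cells with a gene (percentage points, Isl1Cre minus Nkx2-5Cre; 5000 counts, 20000 counts, all counts) were -11.8, 0, 0 for Myl7, -22.0, -4.82, 0 for Tnnt2, -32.3, -49.0, -21.5 for Myh6, -16.3, -32.6, -49.3 for Actn2 and -19.2, -40.0, -87.2 for Nodal; these shares moved with the number of counts used, and over all counts Actn2 and Nodal were found in 11 of 11 Nkx2-5Cre endoderm-like cells. With the replicate number as a block, 816 genes were called (399 higher, 417 lower; 744 shared with the fit without it) and 359 against later stages, and all 84 named calls held; the E7.75 pairs correlated at 0.009, and 1 of 21 pairs of groups exceeded 0.1, so the numbers do not pair the libraries.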

Other observations

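Several gene groups of the early embryo gave no call at E7.75. None of 18 retinoic acid genes (median log2 change -0.21), 15 Hox genes (0.00), 21 cholesterol synthesis genes (-0.16) or 10 genes of the Ifitm family and early mesoderm surface (-0.06) passed limma's test, and the medians lay near that of all genes (-0.05). At an unadjusted p under 0.05, 3 retinoic acid, 2 Hox, 2 cholesterol and 3 Ifitm and surface genes passed, and edgeR called 0, 1, 0 and 0 of them.

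Genes of the X chromosome were called about as often as others, although the lines differed in sex. Of 380 X-linked genes tested, 13 were higher and 14 lower in Isl1Cre, with a median log2 change of -0.11 beside -0.05 for all genes. The 4 Y-linked genes tested were all lower, among them Uty, which had no count in Isl1Cre and 755 and 337 counts in Nkx2-5Cre.

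Stress and housekeeping genes moved singly. Of 24 immediate early and heat shock genes, 3 (Hspa5, Hsp90aa1 and Hspa8) were higher and 1 (Ier2) lower. Hspa5 was measured at 1005 and 972 CPM in Nkx2-5Cre and 1359 and 1484 CPM in Isl1Cre (log2 change 0.57, adjusted p = 0.00601, lost without the second Isl1Cre library at 0.074), and Ier2, an immediate early gene, at 178 and 166 against 112 and 94.7 CPM (-0.69, adjusted p = 0.0316, lost without any 1 of the 4 libraries at 0.0683 to 0.232). Of 21 endoderm genes, Trh and Krt18 were higher and Pyy lower; Trh stood at 18.7 and 12.6 against 96.5 and 72.9 CPM. The Trh and Krt18 calls each passed in 1 of 4 fits with a library left out (adjusted p 0.0474 to 0.112 and 0.0383 to 0.161), Trh without the first Nkx2-5Cre and Krt18 without the second Isl1Cre library; the number higher was 1 and 0 without the first and the second Nkx2-5Cre library, and 0 and 1 without the first and the second Isl1Cre library, and edgeR called 0 of the 21. The endoderm-like shares given above overlapped between the lines.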
